A study of Homo sapiens with 12 samples.

Results

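The genes described here take part in placing, copying or reading methyl groups on cytosine, or in removing mismatched or oxidised bases. They are the DNA methyltransferases DNMT1, DNMT3A and DNMT3B, the methyltransferase cofactor UHRF1, the methyl-CpG binding domain genes MBD1, MBD2, MBD3 and MBD4, and the thymine DNA glycosylase TDG. Every probe set whose platform annotation gave 1 gene symbol from this list was taken, which yielded 18 probe sets for 8 of the 9 genes, out of 22215 probe sets other than controls. No probe set was listed with UHRF1 as its only symbol, so its transcript was not analysed here. DNMT1, DNMT3A and DNMT3B had 1 probe set each, MBD1 and TDG had 2 each, MBD3 had 3, and MBD2 and MBD4 had 4 each.

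RNA came from S1 cells of the HMT-3522 series, a human breast epithelial cell line that is not neoplastic and that builds acini with apical polarity in basement membrane extract. The AGA group (4 arrays) received 10 µM 18-alpha-glycyrrhetinic acid, a blocker of gap junctions, and is labelled as not polarized. The Aza group (4 arrays) received 10 µM 5-aza-2'-deoxycytidine, a cytidine analogue that traps DNA methyltransferases on DNA, and is also labelled as not polarized. The vehicle group (4 arrays), whose solvent the labels do not name, is labelled as polarized. Both compounds were present for 10 days from plating, renewed every 2 days. All 3 groups shared 5% Matrigel, a defined medium with hydrocortisone, insulin, oestradiol and prolactin, and 48 hours without EGF before harvest. All arrays represent a single cell line at passages 55 to 60, and the labels number the replicates of each group 1 to 4 without saying whether they were separate cultures. The p-values therefore measure only the spread between these samples, which may be technical.

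DNMT1 restores methylation on the daughter strand after DNA replication, and UHRF1 brings it to the half-methylated sites. DNMT3A and DNMT3B place methyl groups on sites that had none. MBD1 and MBD2 bind methylated CpG and recruit repressive complexes, MBD3 is a subunit of the NuRD deacetylase complex, and MBD4 and TDG are glycosylases that remove thymine from G/T mismatches left by deamination. Azacytosine that has entered DNA binds DNMT1 covalently and the trapped protein is degraded; the levels below are of transcripts, and no protein was measured.

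The start regions of the genes with the results described most fully are shown first, with the CpG sites at which methylation could occur. They are RefSeq windows of assembly GRCh38.p14, from 250 bases before to 50 after the annotated start, on the gene's strand, 5′ to 3′, with every CG in capitals. The DNMT1 window is chr19:10194904-10195203 (minus strand), the MBD3 window chr19:1592816-1593115 (minus strand) and the MBD4 window chr3:129439899-129440198 (minus strand).
DNMT1: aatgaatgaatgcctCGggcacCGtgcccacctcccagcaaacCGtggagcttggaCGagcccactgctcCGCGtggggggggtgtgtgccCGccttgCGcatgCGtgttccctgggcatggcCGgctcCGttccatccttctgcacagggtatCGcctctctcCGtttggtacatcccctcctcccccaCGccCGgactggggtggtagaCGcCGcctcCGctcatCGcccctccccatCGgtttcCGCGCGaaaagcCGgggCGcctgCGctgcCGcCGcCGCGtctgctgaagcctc
MBD3: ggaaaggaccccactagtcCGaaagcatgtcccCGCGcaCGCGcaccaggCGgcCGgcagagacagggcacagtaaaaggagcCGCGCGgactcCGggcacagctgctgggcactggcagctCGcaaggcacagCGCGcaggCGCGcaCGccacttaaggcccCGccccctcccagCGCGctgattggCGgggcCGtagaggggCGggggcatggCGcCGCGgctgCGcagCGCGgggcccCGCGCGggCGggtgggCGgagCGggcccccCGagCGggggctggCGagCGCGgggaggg
MBD4: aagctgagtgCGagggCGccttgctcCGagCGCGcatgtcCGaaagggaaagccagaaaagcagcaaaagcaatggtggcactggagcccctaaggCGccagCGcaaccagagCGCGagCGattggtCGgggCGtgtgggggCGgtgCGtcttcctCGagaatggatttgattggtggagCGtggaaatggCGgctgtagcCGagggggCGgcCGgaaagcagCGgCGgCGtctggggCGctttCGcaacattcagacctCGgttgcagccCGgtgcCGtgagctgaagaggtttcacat
The DNMT1 window holds 30 CG pairs, a count reached by 22.4% of the 35116 windows of this length. The MBD3 window holds 40 (7.61% of windows reach it) and the MBD4 window 29 (24.2%). CG reads the same on both strands, 96.0% of all windows hold at least 1, and the median window holds 14. The table held 16 windows for the 9 genes, some of them overlapping, and 15 were above that median. Of the 6 DNMT3A windows 5 belonged to starts 107 to 90459 bases inside the annotated gene. The 3 UHRF1 windows belonged to starts 6421 to 7287 bases inside theirs. The window not above the median, with 3 CG pairs, was that of DNMT3B, whose start lay 17467 bases inside its gene. No methylation was measured on these arrays.

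Deposited median intensity per array ran from 23.3 to 35.9. Levels are given as quantile-normalized log2 intensity, with deposited values below 1 near 0, and a level of one probe set cannot be set against that of another. By the brightest probe set of each gene, 7 of 9 epithelial markers had a mean level above the median of all probe sets, EPCAM and KRT19 being the exceptions. The same held for 2 of 6 fibroblast, 0 of 4 measured leukocyte, and 1 of 6 endothelial and adipocyte markers. These counts set different probe sets side by side and favour genes with several, so they are only a rough guide. In Aza minus AGA the median difference was -0.42 over 13 epithelial and 0.40 over 16 fibroblast probe sets. Limma with the replicate block put 2 of 13 epithelial lower and 4 of 16 fibroblast higher there at an unadjusted p under 0.05. It put 0 of either list the other way, and 9.13% of all probe sets passed in either direction. In AGA minus vehicle the medians were 0.07 and -0.32, with 2 epithelial higher and 1 fibroblast lower in that fit (9.52% of all). In Aza minus vehicle they were -0.19 and 0.07, with 2 epithelial lower and 3 fibroblast higher (5.39% of all). With an intensity trend added, limma called 1 fibroblast probe set in Aza minus AGA (adjusted p under 0.05), and 189 of 22215 in all. The part of these marker genes in the differences below was not tested. Among the 11107 brighter probe sets, the first principal component (43.4% of the variance) separated the replicate 4 arrays of all 3 groups from the other 9. In RNA from whole cultures, fewer cells expressing a gene and less RNA per cell cannot be told apart.

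**Figure D1:**
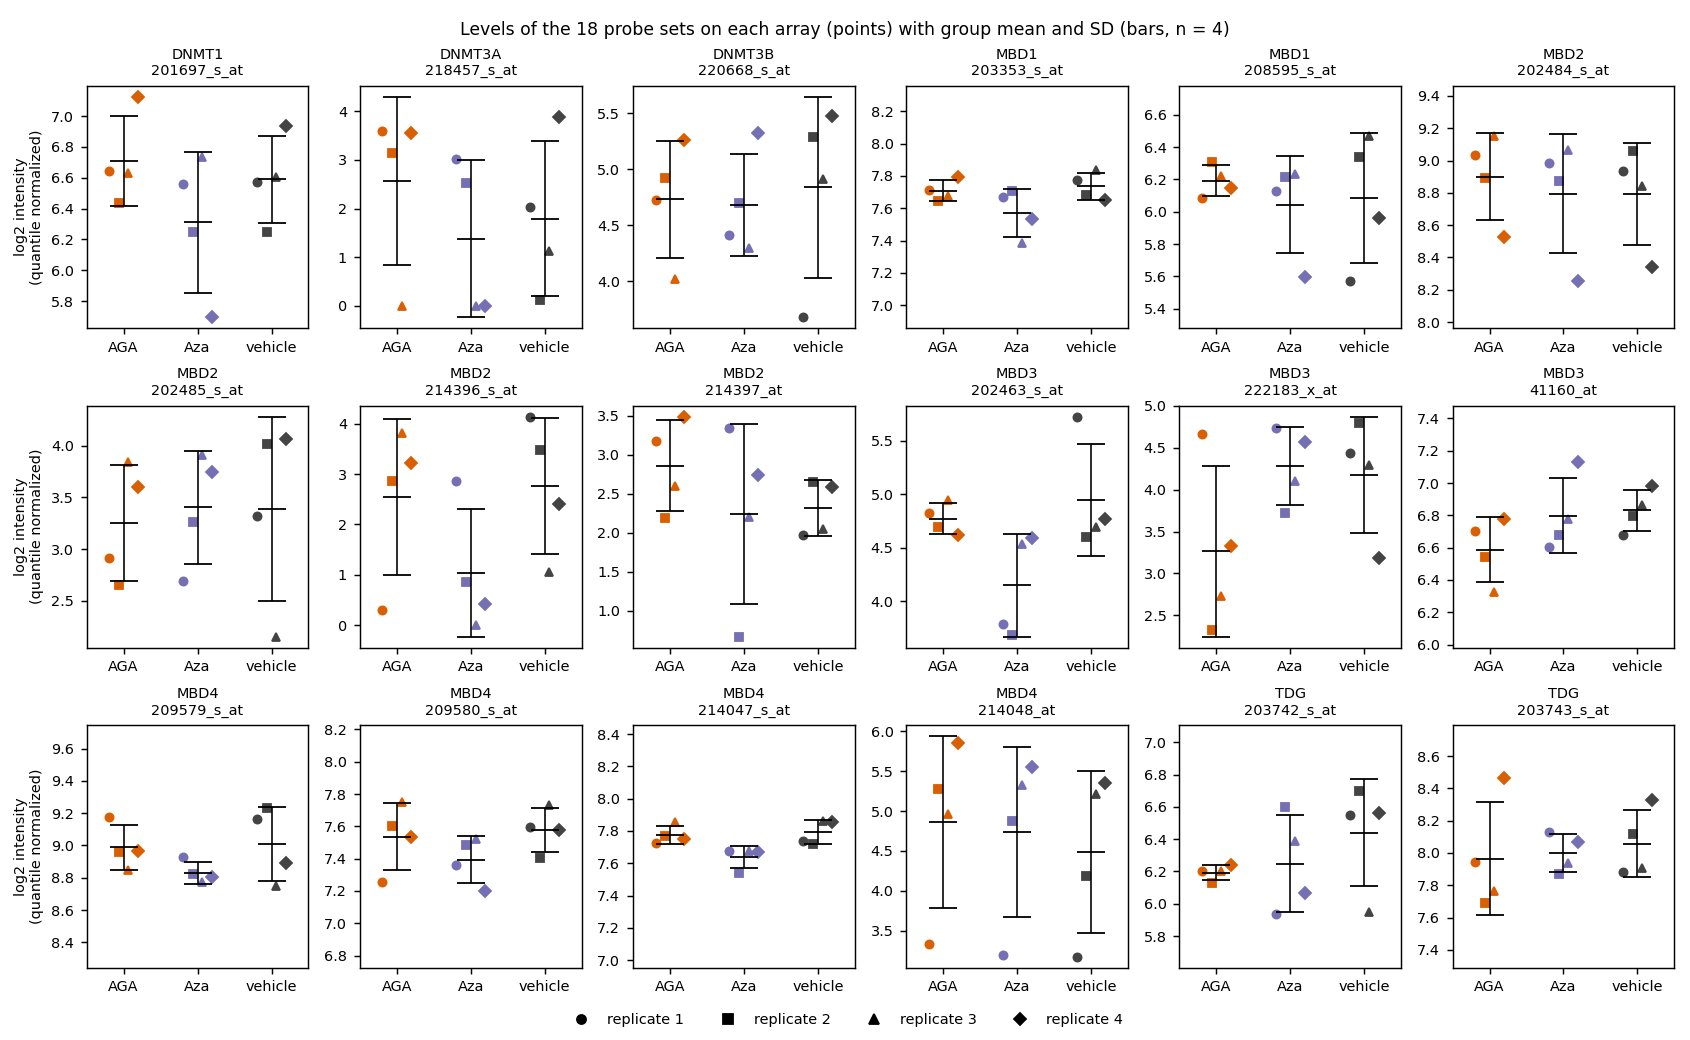
Each panel plots 1 probe set; the vertical axis is log2 intensity after quantile normalization, points are arrays shaped by replicate number, and bars are the mean and SD of 4 arrays in AGA, Aza and vehicle. Vertical ranges differ between panels. The DNMT1 level of Aza replicate 4, at 5.70, lies below the other 11 arrays.

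None of the 18 probe sets passed in any comparison. In limma with Benjamini-Hochberg adjustment over all probe sets, 0 of 18 had an adjusted p under 0.05 in AGA minus vehicle, where 0.009% of all probe sets did. The count was 0 of 18 in Aza minus vehicle (0.009% of all) and 0 of 18 in Aza minus AGA (0.0135% of all). Every adjusted p of these probe sets was 1. With the replicate number as a block the count was again 0 of 18 in each comparison. Over all probe sets that fit called 0.009%, 0% and 0.009%, in the same order. For the 18, its lowest limma adjusted p was 0.591 in AGA minus vehicle, 0.912 in Aza minus vehicle and 0.578 in Aza minus AGA. At an unadjusted p under 0.05, limma gave 0 of 18 in AGA minus vehicle (4.73% of all probe sets), 1 of 18 in Aza minus vehicle (3.27% of all) and 0 of 18 in Aza minus AGA (4.76% of all).

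The precision of these differences varied among the probe sets. The 95% interval of the difference lay inside a 2-fold change in both directions for 11 of 18 probe sets in AGA minus vehicle, for 10 in Aza minus vehicle and for 11 in Aza minus AGA. With the replicate block the counts were 13, 12 and 11. MBD4 214048_at moved most, with an interval in AGA minus vehicle of -1.15 to 1.90 without the block and -0.11 to 0.85 with it. For 5 of 18 probe sets in AGA minus vehicle, namely DNMT3A, MBD2 202485_s_at, 214396_s_at and 214397_at, and MBD3 222183_x_at, a 2-fold change in at least 1 direction lay within the interval in both fits. The median difference was -0.04 in AGA minus vehicle, -0.16 in Aza minus vehicle and -0.14 in Aza minus AGA, beside medians of 0.00 over all probe sets in each comparison. Of the 18 differences, 6 were above 0 in AGA minus vehicle, 4 in Aza minus vehicle and 5 in Aza minus AGA. Without normalization between arrays the median in AGA minus vehicle was -0.30, where that of all probe sets was -0.24. On that scale the medians were -0.23 in Aza minus vehicle (all probe sets -0.06) and 0.06 in Aza minus AGA (all probe sets 0.18). Without vehicle replicate 2 the Aza minus vehicle median was -0.07. The first 2 comparisons share the vehicle arrays, and all 3 share groups, so their values are not independent.

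**Figure D2:**
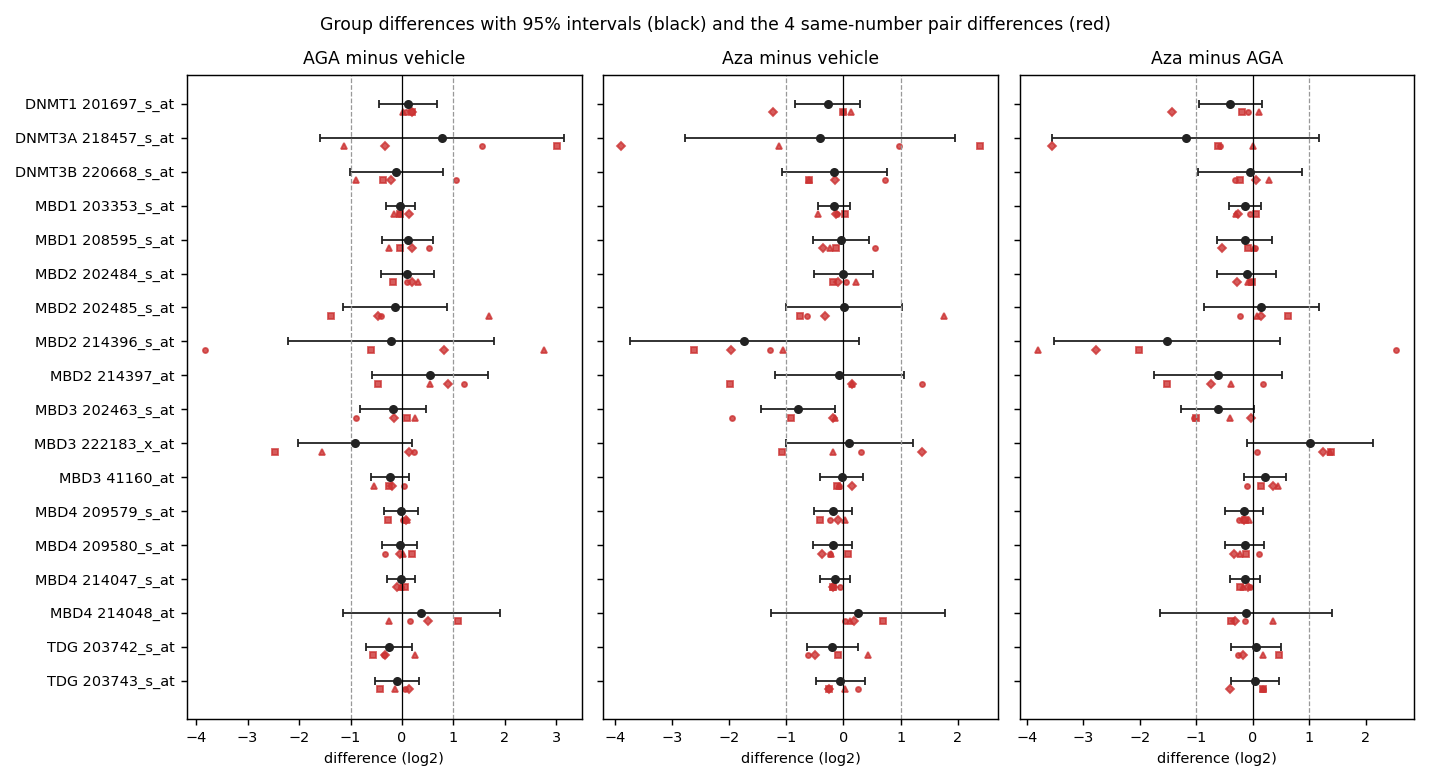
The horizontal axis is the log2 difference between group means in the comparison named above each panel; black points and bars are the limma estimate with its 95% interval, red points are the differences within the 4 same-number pairs, and dashed lines mark a 2-fold change. The interval of MBD3 probe set 202463_s_at in Aza minus vehicle, from -1.45 to -0.15, is the only one of the 54 that does not include 0.

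DNMT1, the maintenance methyltransferase, was read by probe set 201697_s_at. Its levels were 6.64, 6.43, 6.63 and 7.13 on AGA arrays 1 to 4, and 6.56, 6.25, 6.74 and 5.70 on Aza arrays 1 to 4, against 6.57, 6.25, 6.61 and 6.93 on vehicle arrays 1 to 4. The 3 groups overlapped, and the array that stood lowest was Aza replicate 4. In deposited units that array had an intensity of 46.3, where the other 3 Aza arrays had 79.5 to 113 and the vehicle arrays 77.5 to 129. The mean was 6.31 ± 0.46 in Aza and 6.59 ± 0.28 in vehicle (SD, n = 4 each), a difference of -0.28 ± 0.25 (SE; 95% interval -0.84 to 0.28, that is 0.559-fold to 1.22-fold). Within pairs the Aza minus vehicle difference was -0.01, -0.00, 0.13 and -1.24 for replicates 1 to 4. Pair 4 was by far the largest in size, and without Aza replicate 4 the estimate was -0.07. AGA had a mean of 6.71 ± 0.29 (SD, n = 4), a difference from vehicle of 0.12 ± 0.25 (SE; 95% interval -0.44 to 0.68). The AGA level was above vehicle in 4 of 4 pairs, by 0.03 to 0.19, but the difference was -0.16 without normalization between arrays. Aza minus AGA was -0.40 ± 0.25 (SE; 95% interval -0.96 to 0.16), and pair 4 again carried most of it, at -1.43 against -0.19 to 0.10 for the other 3.

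DNMT3A, a de novo methyltransferase, was near the floor on its only probe set, 218457_s_at. Levels were 3.59, 3.14, 0.00 and 3.55 on AGA arrays 1 to 4, 3.01, 2.52, 0.00 and 0.00 on Aza arrays 1 to 4, and 2.04, 0.13, 1.12 and 3.88 on vehicle arrays 1 to 4. Deposited intensity ran from 0.558 to 15.5 and lay below 1 on 3 arrays. The difference was 0.78 ± 1.07 in AGA minus vehicle (SE; 95% interval -1.59 to 3.14) and -0.41 ± 1.07 in Aza minus vehicle (-2.77 to 1.95). Intervals this wide include a 2-fold change either way, and no deposited value reached 16.

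DNMT3B, the other de novo enzyme, had levels of 4.72, 4.93, 4.02 and 5.26 on AGA arrays 1 to 4, 4.41, 4.70, 4.30 and 5.32 on Aza arrays 1 to 4, and 3.68, 5.29, 4.91 and 5.48 on vehicle arrays 1 to 4 (probe set 220668_s_at). The groups overlapped over nearly their whole range. The difference was -0.11 ± 0.41 in AGA minus vehicle (SE; 95% interval -1.02 to 0.80) and -0.16 ± 0.41 in Aza minus vehicle (-1.07 to 0.76). Replicate 4 was the highest array of each group.

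MBD1, which binds methylated CpG through its MBD domain, had 2 probe sets. Probe set 203353_s_at read 7.71, 7.64, 7.68 and 7.79 on AGA arrays 1 to 4, 7.67, 7.70, 7.38 and 7.53 on Aza arrays 1 to 4, and 7.78, 7.68, 7.84 and 7.65 on vehicle arrays 1 to 4. The groups overlapped, and Aza replicate 3 was the lowest array. The probe set had a mean of 7.71 ± 0.07 in AGA, 7.57 ± 0.15 in Aza and 7.74 ± 0.08 in vehicle (SD, n = 4 each). The difference was -0.03 ± 0.13 in AGA minus vehicle (SE; 95% interval -0.32 to 0.26) and -0.16 ± 0.13 in Aza minus vehicle (-0.45 to 0.12). Written as folds, the intervals ran from 0.803 to 1.20 in AGA and from 0.731 to 1.09 in Aza. The second MBD1 probe set, 208595_s_at, differed by 0.11 ± 0.22 in AGA and by -0.04 ± 0.22 in Aza (SE). Its Aza level was 0.11 above vehicle without Aza replicate 4, the lowest Aza array.

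MBD2, a methyl-CpG reader that carries NuRD to methylated promoters, was bright on probe set 202484_s_at and dim on 3 others. The bright probe set read 9.03, 8.89, 9.15 and 8.53 on AGA arrays 1 to 4, 8.99, 8.87, 9.07 and 8.25 on Aza arrays 1 to 4, and 8.94, 9.06, 8.84 and 8.34 on vehicle arrays 1 to 4. Replicate 4 was the lowest array in every group, and the groups overlapped. The difference was 0.11 ± 0.24 in AGA minus vehicle (SE; 95% interval -0.42 to 0.63; -0.14 without normalization between arrays) and 0.00 ± 0.24 in Aza minus vehicle (-0.52 to 0.52). Of the dim probe sets, 214396_s_at had the most negative Aza estimate of the 18. It read 0.31, 2.87, 3.81 and 3.21 on AGA arrays 1 to 4, 2.85, 0.86, 0.00 and 0.43 on Aza arrays 1 to 4, and 4.14, 3.47, 1.05 and 2.40 on vehicle arrays 1 to 4. Aza lay below vehicle in 4 of 4 pairs, but the groups overlapped, the difference of -1.73 ± 0.91 (SE) had a 95% interval of -3.73 to 0.27, and the highest deposited intensity was 18.4. The remaining dim probe sets, 202485_s_at and 214397_at, differed by -0.14 and 0.54 in AGA minus vehicle and by 0.01 and -0.07 in Aza minus vehicle. The 4 MBD2 estimates differed in sign in both comparisons.

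MBD3, the NuRD subunit whose mammalian MBD domain binds methylated CpG poorly, had the only member probe set with an unadjusted limma p under 0.05, in Aza minus vehicle. Probe set 202463_s_at read 4.83, 4.69, 4.94 and 4.62 on AGA arrays 1 to 4, 3.79, 3.69, 4.54 and 4.59 on Aza arrays 1 to 4, and 5.73, 4.60, 4.69 and 4.77 on vehicle arrays 1 to 4. All Aza values were below all vehicle values, with 4.59 as the highest Aza and 4.60 as the lowest vehicle level, and Aza was the lower in 4 of 4 pairs. The mean was 4.15 ± 0.48 in Aza and 4.95 ± 0.52 in vehicle (SD, n = 4 each). The difference of -0.80 ± 0.29 (SE; 95% interval -1.45 to -0.15) had an unadjusted limma p of 0.0201 and a limma adjusted p of 1 (0.912 with the replicate block). Vehicle replicate 1 stood above its group, and without it the difference was -0.54, with an unadjusted limma p of 0.0563. Without Aza replicate 1 that p was 0.0584, and without Aza replicate 2 it was 0.0620 (limma). Aza minus AGA was -0.62 ± 0.29 (SE; 95% interval -1.27 to 0.02), and AGA minus vehicle was -0.18 ± 0.29 (-0.82 to 0.47).

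The other MBD3 probe sets gave other values. Probe set 41160_at read 6.33 to 6.78 in AGA, 6.60 to 7.13 in Aza and 6.68 to 6.98 in vehicle. The difference was -0.24 ± 0.17 in AGA minus vehicle (SE; 95% interval -0.61 to 0.13) and -0.03 ± 0.17 in Aza minus vehicle (-0.40 to 0.34). Probe set 222183_x_at, whose suffix marks probes that can bind other transcripts, differed by 0.10 ± 0.51 in Aza minus vehicle. In AGA it read 4.67, 2.33, 2.74 and 3.33 on arrays 1 to 4, against 4.43, 4.80, 4.29 and 3.19 in vehicle, a difference of -0.91 ± 0.51 (SE; 95% interval -2.03 to 0.20). Its 2 lowest values were AGA replicates 2 and 3, and Aza minus AGA was 1.02 ± 0.51 (SE; 95% interval -0.10 to 2.13). The intervals of 202463_s_at and 41160_at in Aza minus vehicle overlapped between -0.40 and -0.15, and the difference between probe sets was not tested.

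MBD4 joins an MBD domain to a glycosylase and removes thymine opposite guanine at CpG sites. Probe set 214047_s_at read 7.73, 7.77, 7.85 and 7.75 on AGA arrays 1 to 4, 7.68, 7.54, 7.68 and 7.67 on Aza arrays 1 to 4, and 7.74, 7.72, 7.86 and 7.86 on vehicle arrays 1 to 4. The Aza values did not overlap with those of vehicle or of AGA, although the gap was small and was not present without normalization between arrays. The difference was -0.15 ± 0.12 in Aza minus vehicle (SE; 95% interval -0.42 to 0.11) and -0.02 ± 0.12 in AGA minus vehicle (-0.28 to 0.25). In Aza minus vehicle, 209579_s_at differed by -0.18 ± 0.15 and 209580_s_at by -0.18 ± 0.16 (SE), so that the 3 brighter MBD4 probe sets had estimates from -0.18 to -0.15. They read the same gene and are not replicates of the treatment. In Aza minus AGA the same 3 had estimates from -0.16 to -0.14, which became 0.04 to 0.06 without normalization between arrays. The lowest bound of their 3 intervals in Aza minus vehicle was 0.694-fold. The 4th probe set, 214048_at, is described with the replicate numbers below.

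TDG, the glycosylase that also removes the oxidised forms of methylcytosine made by TET enzymes, had 2 probe sets. Probe set 203743_s_at read 7.94, 7.69, 7.76 and 8.47 on AGA arrays 1 to 4, 8.13, 7.87, 7.94 and 8.07 on Aza arrays 1 to 4, and 7.88, 8.11, 7.91 and 8.33 on vehicle arrays 1 to 4. The groups overlapped, and the difference was -0.09 ± 0.19 in AGA minus vehicle (SE; 95% interval -0.52 to 0.34) and -0.06 ± 0.19 in Aza minus vehicle (-0.49 to 0.37). Probe set 203742_s_at differed by -0.25 ± 0.20 in AGA and by -0.19 ± 0.20 in Aza (SE). Its AGA arrays lay within 6.13 to 6.24, a narrower range than 5.94 to 6.60 in Aza or 5.95 to 6.70 in vehicle.

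Groups that did not overlap were counted over the whole list. In AGA minus vehicle 0 of 18 probe sets had no overlap, where 2.52% of all probe sets did. In Aza minus vehicle 2 of 18 (11.1%) had none, beside 1.72% of all, and in Aza minus AGA 2 of 18 (11.1%), beside 2.58% of all. In both comparisons they were MBD3 202463_s_at and MBD4 214047_s_at, with Aza as the lower group. Without normalization between arrays, a check added after the values were seen, the count was 1 of 18 (5.56%) in Aza minus vehicle, beside 1.64% of all, where MBD3 202463_s_at kept its gap. MBD4 214047_s_at then overlapped both groups, with deposited intensity of 181 to 233 in Aza, 175 to 225 in AGA and 211 to 312 in vehicle. On that scale MBD3 202463_s_at overlapped in Aza minus AGA, where the 1 of 18 without overlap (3.89% of all) was MBD3 41160_at, and 2 of 18 (11.1%; 4.87% of all) had none in AGA minus vehicle, MBD3 41160_at and TDG 203742_s_at.

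All 4 pairs lay below 0 for 3 of 18 probe sets (16.7%) in Aza minus vehicle, beside 7.12% of all, namely MBD2 214396_s_at, MBD3 202463_s_at and MBD4 214047_s_at. In Aza minus AGA this held for 4 of 18 (22.2%), beside 8.76% of all, namely MBD2 202484_s_at, MBD3 202463_s_at and the MBD4 probe sets 209579_s_at and 214047_s_at, and in AGA minus vehicle for 0 of 18, beside 9.06%. These counts depended on the scaling. Without normalization between arrays they were 3 of 18 (7.53% of all) in Aza minus vehicle, with MBD4 209579_s_at in place of 214047_s_at. In Aza minus AGA they were 2 of 18 (2.63% of all), and of the 4 named there MBD3 202463_s_at remained. In AGA minus vehicle they were 6 of 18 (20.5% of all). After normalization, all 4 pairs lay above 0 for 1 of 18 in each comparison, which was DNMT1 in AGA minus vehicle (9.15% of all), MBD4 214048_at in Aza minus vehicle (7.61% of all) and MBD3 222183_x_at in Aza minus AGA (8.66% of all).

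Replicate number went with more of the variation than treatment in most of the 18 probe sets. Its share of the sum of squares over the 12 arrays exceeded that of the 3 groups in 12 of 18 probe sets (66.7%), beside 77.4% of all probe sets. The median share was 38.4% for replicate number and 20.6% for the groups, where the medians over all probe sets were 40.8% and 12.5%. The groups had 3 levels and the replicate number 4, so equal scatter would favour the replicate number. In limma's F test of replicate number with the groups in the model, added after the values were seen, 2 of 18 probe sets (11.1%) had an adjusted p under 0.05, beside 9.63% of all. Without normalization between arrays 1 of 18 passed (1.67% of all), and with arrays centred on their medians 2 of 18 (7.73% of all).

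**Figure D3:**
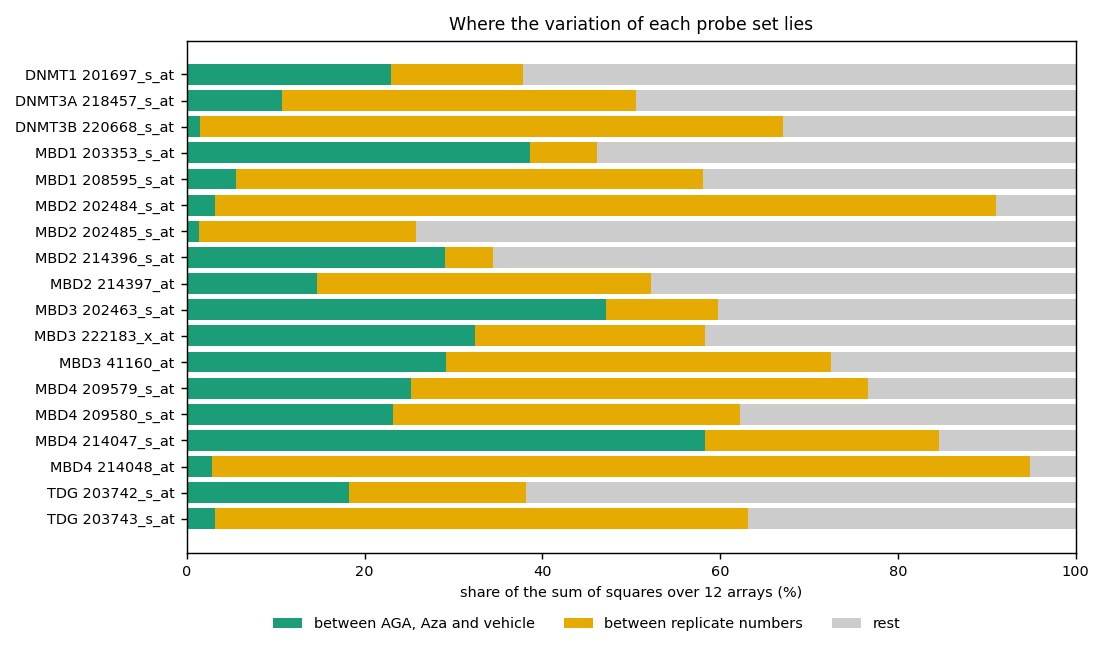
Bars divide the sum of squares of each probe set over the 12 arrays, in percent, into the part between AGA, Aza and vehicle, the part between replicate numbers 1 to 4, and the rest. The replicate part reaches 92.1% for MBD4 probe set 214048_at and 87.9% for MBD2 probe set 202484_s_at, and the group part is largest, at 58.3%, for MBD4 probe set 214047_s_at.

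The 2 were MBD4 214048_at and the bright MBD2 probe set. MBD4 214048_at read 3.34 in AGA, 3.20 in Aza and 3.18 in vehicle on the replicate 1 arrays, and 4.19 to 5.85 on the other 9. Replicate 1 was the lowest array in each group. The difference was 0.37 ± 0.69 in AGA minus vehicle and 0.25 ± 0.69 in Aza minus vehicle (SE), while the adjusted p of the limma F test was 0.0101 (0.0430 without normalization between arrays). The 3 other MBD4 probe sets did not pass this test, with adjusted p of 0.348, 0.508 and 0.778, so the dip was seen on 1 of the 4. That probe set was dim on the replicate 1 arrays, with deposited intensity of 8.40 in AGA, 9.69 in Aza and 9.12 in vehicle. The 3 others had deposited intensities of 124 to 596. MBD2 202484_s_at read 8.25 to 8.53 on the replicate 4 arrays and 8.84 to 9.15 on the other 9, with an adjusted p of 0.0457 in the limma F test and 0.101 without normalization between arrays. For DNMT3B the replicate 4 arrays read 5.26 to 5.48 and the other 9 read 3.68 to 5.29, and the test did not pass (adjusted p = 0.165, limma).

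**Figure D4:**
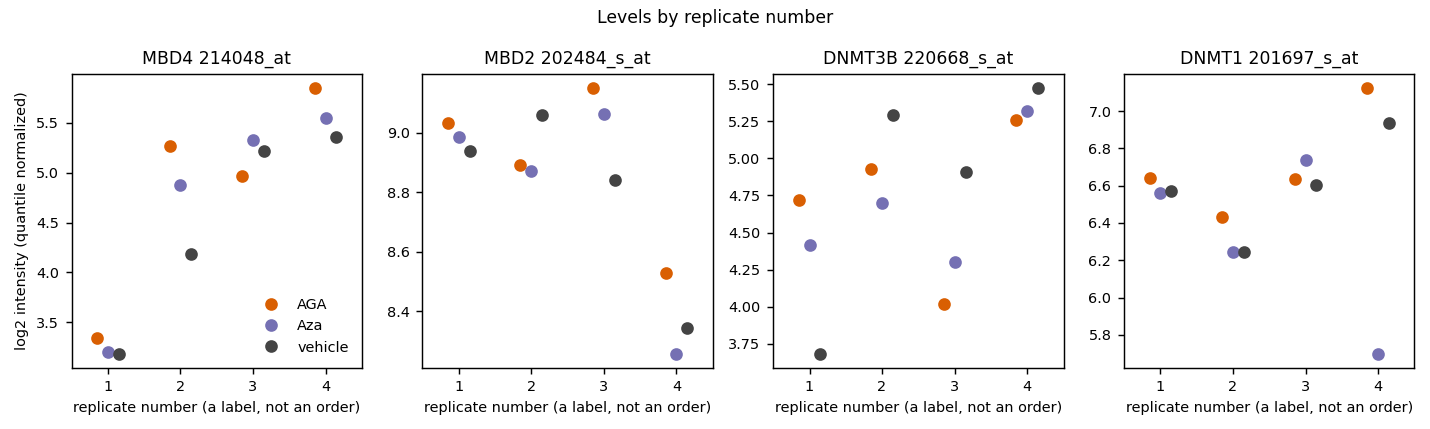
Log2 intensity after quantile normalization of 4 probe sets against replicate number, with 1 point per array coloured by group; the number is a label and has no order. MBD4 214048_at is low on all 3 replicate 1 arrays, MBD2 202484_s_at is low on all 3 replicate 4 arrays, and for DNMT1 the replicate 4 arrays read 7.13 in AGA, 5.70 in Aza and 6.93 in vehicle.

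Replicate 4 holds 1 array of each group. The AGA and vehicle arrays of that number were the highest of their groups for DNMT1, at 7.13 and 6.93, and the Aza array was the lowest of all 12 at 5.70. The same Aza array was also the lowest of its group for MBD1 208595_s_at (5.60), MBD2 202484_s_at (8.25) and MBD4 209580_s_at (7.20), and for DNMT3A (0.00) together with Aza replicate 3. It was the highest of its group for DNMT3B (5.32), MBD3 202463_s_at (4.59), MBD3 41160_at (7.13) and MBD4 214048_at (5.55). Leaving out all replicate 4 arrays, the Aza minus vehicle difference of DNMT1 was 0.04 ± 0.19 (SE, n = 3).

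Other genes of the pathway were counted in 7 lists with 64 genes, of which 53 had 84 probe sets with a single symbol. Limma called 0 of 84 in each comparison, with and without the replicate block, where it called at most 0.0135% of all probe sets. At an unadjusted p under 0.05 there were 0 higher and 1 lower in AGA minus vehicle (1.19%), 1 higher and 0 lower in Aza minus vehicle (1.19%), and 4 higher and 2 lower in Aza minus AGA (7.14%), beside 4.73%, 3.27% and 4.76% of all probe sets. With the replicate block there were 1 higher and 8 lower in AGA minus vehicle (10.7%; 9.52% of all), 1 higher and 2 lower in Aza minus vehicle (3.57%; 5.39% of all), and 6 higher and 3 lower in Aza minus AGA (10.7%; 9.13% of all). Of the 8 lower in AGA, 4 were in the list of demethylation and base excision, 2 in methyl donor supply and 2 in S phase and cycling. Maintenance partners, which act with DNMT1 at the replication fork, had medians of -0.08 in AGA minus vehicle and -0.10 in Aza minus vehicle (beside 0.00 over all probe sets). Among them the sliding clamp gene PCNA differed by 0.05 ± 0.25 in AGA and 0.06 ± 0.25 in Aza, and the chromatin remodeller gene HELLS by -0.18 ± 0.30 in AGA and -0.14 ± 0.30 in Aza (SE, n = 4). USP7, a deubiquitinase that stabilises DNMT1, had 3 probe sets, and in Aza minus AGA they disagreed, at 0.74 ± 0.33 for 222032_s_at and -0.35 ± 0.18 for 201499_s_at (SE). The remaining one, 201498_at, had means of 8.02 in Aza and 8.13 in AGA. The dimmest was 222032_s_at, with means of 4.91 in Aza and 4.16 in AGA.

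DNMT3L, the inactive partner of the de novo enzymes, lay near the floor. Its level was 3.40, 3.27, 2.84 and 0.00 on AGA arrays 1 to 4, 0.00, 1.04, 0.24 and 0.00 on Aza arrays 1 to 4, and 3.36, 1.46, 2.39 and 0.24 on vehicle arrays 1 to 4. Aza minus AGA was -2.06 ± 0.81 and Aza minus vehicle -1.54 ± 0.81 (SE), with limma adjusted p of 0.993 and 1, and the groups overlapped, AGA replicate 4 and vehicle replicate 4 being low too. TET1, which starts demethylation by oxidising methylcytosine, had 1 probe set, 214862_x_at, of the kind that can bind other transcripts. It was 3.51, 3.45, 2.65 and 3.02 on AGA arrays 1 to 4, and 3.31, 4.07, 3.85 and 4.41 on vehicle arrays 1 to 4, with overlap between 3.31 and 3.51 and a difference of -0.75 ± 0.28 (SE; limma adjusted p = 1). In Aza minus vehicle it was at -0.43 ± 0.28 (SE).

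Among partners of the readers, the NuRD histone-binding subunit gene RBBP7 read 9.89, 10.14, 9.98 and 9.84 on Aza arrays 1 to 4 and 9.62, 9.76, 9.67 and 9.22 on AGA arrays 1 to 4. The Aza values lay above all AGA values, where 2.58% of all probe sets had no overlap in either direction. Vehicle, at 9.70 to 9.86, overlapped both groups. The Aza minus AGA difference of 0.39 ± 0.15 (SE) did not pass (limma adjusted p = 0.993). CHD3, a NuRD remodelling ATPase gene, had 2 probe sets of opposite sign in AGA minus vehicle, at -0.34 ± 0.20 for 208807_s_at and 0.23 ± 0.67 for 208806_at (SE). Genes of methyl donor supply had medians of -0.10 in AGA minus vehicle and 0.01 in Aza minus vehicle. For methionine adenosyltransferase, the AGA minus vehicle difference was -0.31 ± 0.15 for MAT2B, the regulatory subunit, and -0.26 ± 0.13 for the brighter probe set of MAT2A, the catalytic subunit (SE). Each was lower in AGA in 4 of 4 pairs, as were 9.06% of all probe sets. For this MAT2A probe set, at 9.77 to 9.98 in AGA and 10.07 to 10.29 in vehicle, the groups did not overlap (2.52% of all). Neither passed, with limma adjusted p of 1 for both and of 0.470 for MAT2B and 0.512 for MAT2A with the replicate block. The other MAT2A probe set, 200769_s_at, overlapped, at 5.92 to 6.42 in AGA and 6.09 to 6.85 in vehicle. In pair 2 it was higher in AGA. In the list of S phase and cycling genes, the phase in which DNMT1 acts, the medians were -0.10 in AGA minus vehicle and -0.04 in Aza minus vehicle. RRM2, a ribonucleotide reductase subunit gene, read 3.69, 3.20, 3.39 and 2.54 on Aza arrays 1 to 4 and 2.07, 0.71, 2.41 and 1.33 on vehicle arrays 1 to 4. The Aza values lay above all vehicle values, where 1.72% of all probe sets had no overlap in either direction. Such gaps were not counted over the lists. The difference of 1.58 ± 0.52 (SE; limma adjusted p = 1) came from a dim probe set, and the other RRM2 probe set was at 0.60 ± 1.12.

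The genes whose levels followed a member most closely were listed for the brightest probe set of each member above the median level, among 6632 genes, after the group means were removed. Over the 12 arrays, DNMT1 went with the zinc finger gene ZNF184 (r = 0.95), MANSC1 (0.91) and the apoptosis gene BAX (0.90), and over the 9 arrays of replicates 1 to 3 these were at 0.86, 0.60 and 0.92. MBD2 went with PPA1 (r = 0.97), PDLIM5 (0.97) and FJX1 (0.97), which were at 0.70, 0.67 and 0.62 without replicate 4. MBD4 went with the phosphatase gene DUSP3 (0.94) and with NFIC (0.93) and KRR1 (0.92), which were at 0.98, 0.96 and 0.96 without replicate 4. TDG went with TBPL1 (0.96), PDS5B (0.92) and ULK2 (0.92), at 0.85, 0.87 and 0.66 without replicate 4. MBD3 went with RSBN1 (0.95), DIS3 (0.94) and a gene listed as WHR1 (0.94), at 0.91, 0.82 and 0.92 over the 9 arrays. MBD1 went with GRN (0.83), GLB1L2 (0.80) and TTI2 (0.79), at 0.87, 0.83 and 0.82 over the 9 arrays. These correlations share arrays, replicate numbers and normalization and were picked as the highest, so they are descriptions without a test.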

How the data were processed

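The authors deposited linear intensity for each probe set of 12 single-colour Affymetrix arrays. Per the submitters' processing notes the software was GCOS, with version, algorithm and scaling not given in the sources used here. Biotin-labelled cRNA was made from 2.25 µg of total RNA, per the labels' protocols. Values below 1 were set to 1, the log2 of the deposited intensity was taken and the arrays were quantile normalized, since their log2 medians differed by 0.62. The 62 control probe sets were left out. Gene symbols came from the platform annotation (19064 of 22215 probe sets had 1), and all 18 member probe sets matched the RefSeq gene table with the same symbol.

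The model was fitted in limma 3.58.1 (R 4.3.3; lmFit and eBayes, two-sided) to all 12 arrays, with Benjamini-Hochberg adjustment over 22215 probe sets at 0.05. Intervals are at 95%. The fits were tested on simulated data. All member probe sets are named. From the wider lists the 2 lowest p per list and comparison could be named; PCNA and HELLS were chosen after their values were seen. Members, lists and tests were chosen with earlier results of these data known. Alternatives were other scalings, a floor of 16, a filter on dim probe sets (mean level of at least 4), Holm adjustment, fits of the 2 groups alone, a block on replicate number, with and without an intensity trend, and fits without single arrays or replicate 4. Across groups, same-number arrays correlated, once group means were removed, by 0.37 to 0.78 in the 11107 brighter probe sets (over 0.1 in 12 of 12 pairs; at most 0.18 for other numbers) and by 0.06 to 0.26 over all probe sets (over 0.1 in 6 of 12). The numbers were taken to pair the arrays on the brighter probe sets, but the labels give only the numbers. The SEs and intervals given do not use this pairing unless the replicate block is named. For MBD2 202484_s_at in AGA minus vehicle the SE was 0.24 without the block and 0.11 with it. No array was identical to another.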

Additional observations from a re-analysis of the deposited data

Results flagged for a closer look

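Within-group outliers were sought in 54 groups of 4 arrays (18 probe sets in 3 groups), where chance alone marks about 1 in 20, and 4 (7.41%) were marked. In each, 1 array lay apart from the other 3 by most of the range of the group. DNMT3A 218457_s_at read 0.00 on AGA 3, while the other AGA arrays read 3.14 to 3.59. MBD1 208595_s_at read 5.60 on Aza 4, with 6.13 to 6.24 on the other Aza arrays. MBD4 214047_s_at read 7.54 on Aza 2, with 7.67 to 7.68 on the others, a gap of small size in a narrow group. MBD3 202463_s_at read 5.73 on vehicle 1, with 4.60 to 4.77 on the other vehicle arrays, and this array enters the Aza minus vehicle difference given for that probe set.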

How the results depend on the processing

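With every alternative tried, 0 of the 18 probe sets were called in each comparison, the replicate block included. Their lowest limma adjusted p with the replicate block was 0.591 in AGA minus vehicle, 0.912 in Aza minus vehicle and 0.578 in Aza minus AGA, and with the block and an intensity trend 0.483, 0.727 and 0.444. The block changed no call. Over all probe sets, 0 to 8 were called per comparison with the other scalings, floor, filter, Holm adjustment, block, or without replicate 4. With the block and an intensity trend, 156 of 22215 were called in AGA minus vehicle, 1 in Aza minus vehicle and 189 in Aza minus AGA. The number of the 18 probe sets that vary with replicate number was 1 without normalization between arrays and 2 with it. The median difference without that normalization was -0.30 in AGA minus vehicle, -0.23 in Aza minus vehicle and 0.057 in Aza minus AGA, and with values below 16 set to 16 it was -0.052 in Aza minus vehicle. Leaving out 1 array gave medians of -0.050 to 0.011 in AGA minus vehicle, -0.18 to -0.074 in Aza minus vehicle and -0.17 to -0.12 in Aza minus AGA. The other values that changed sign belong to differences whose 95% interval included 0, and the cause was not tested. In AGA minus vehicle without normalization between arrays they were -0.16 for DNMT1 201697_s_at, -0.18 for MBD1 208595_s_at, -0.14 for MBD2 202484_s_at. In AGA minus vehicle with arrays centred on their medians they were 0.015 for MBD4 209579_s_at. In AGA minus vehicle without all replicate 4 arrays they were 0.010 for MBD4 214047_s_at. Leaving out 1 array at a time, the sign turned in AGA minus vehicle at least once for MBD2 214396_s_at (-0.79 to 0.53), MBD4 209580_s_at (-0.11 to 0.052), MBD2 202485_s_at (-0.55 to 0.087), DNMT3B 220668_s_at (-0.49 to 0.13), MBD4 209579_s_at (-0.11 to 0.052), DNMT1 201697_s_at (-0.019 to 0.23), MBD1 208595_s_at (-0.065 to 0.23), MBD3 202463_s_at (-0.29 to 0.082), MBD4 214048_at (-0.062 to 0.88), MBD1 203353_s_at (-0.058 to 0.0037), MBD4 214047_s_at (-0.045 to 0.0044), MBD2 202484_s_at (-0.045 to 0.23). In Aza minus vehicle without normalization between arrays they were -0.064 for MBD2 202484_s_at, -0.011 for MBD2 202485_s_at. In Aza minus vehicle with values below 16 set to 16 they were -0.047 for MBD2 202485_s_at, -0.021 for MBD3 222183_x_at. In Aza minus vehicle without all replicate 4 arrays they were 0.041 for DNMT1 201697_s_at, 0.75 for DNMT3A 218457_s_at, 0.068 for MBD1 208595_s_at, -0.32 for MBD3 222183_x_at, 0.011 for TDG 203743_s_at. Leaving out 1 array at a time, the sign turned in Aza minus vehicle at least once for MBD2 202484_s_at (-0.15 to 0.18), MBD3 222183_x_at (-0.23 to 0.31), MBD3 41160_at (-0.14 to 0.033), MBD2 214397_at (-0.44 to 0.45), DNMT3A 218457_s_at (-0.97 to 0.29), MBD2 202485_s_at (-0.40 to 0.25), MBD1 208595_s_at (-0.21 to 0.11), MBD4 214048_at (-0.18 to 0.77), DNMT3B 220668_s_at (-0.54 to 0.055), TDG 203743_s_at (-0.12 to 0.033). In Aza minus AGA without normalization between arrays they were 0.15 for DNMT3B 220668_s_at, 0.055 for MBD1 203353_s_at, 0.048 for MBD1 208595_s_at, 0.078 for MBD2 202484_s_at, 0.037 for MBD4 209579_s_at, 0.051 for MBD4 209580_s_at, 0.059 for MBD4 214047_s_at, 0.061 for MBD4 214048_at. Leaving out 1 array at a time, the sign turned in Aza minus AGA at least once for DNMT3B 220668_s_at (-0.29 to 0.13), MBD4 214048_at (-0.62 to 0.39), TDG 203743_s_at (-0.056 to 0.20), TDG 203742_s_at (-0.061 to 0.16), MBD2 202485_s_at (-0.050 to 0.39), MBD1 208595_s_at (-0.21 to 0.0026), MBD2 202484_s_at (-0.23 to 0.074). Signals near the floor limit DNMT3A, 3 MBD2 probe sets and MBD3 222183_x_at, which a filter on mean level (13 of 18 kept) left out.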
